A study of Homo sapiens with 3 samples.

Results

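The BCL2 family decides whether the outer mitochondrial membrane is opened during apoptosis, and 10 of its genes were described here by name: the pro-survival genes BCL2, BCL2L1 and MCL1, the effectors BAX and BAK1, and the BH3-only genes BCL2L11, BID, BAD, BBC3 and PMAIP1. All 10 were found by gene name among 50868 listed genes, each under 1 identifier. RNA was sequenced from AGS cells, a human gastric adenocarcinoma line, after 48 h in 1 of 3 conditions: DMSO as the vehicle control, 12 µM of a compound named SFA, or 18 µM of a compound named SFE. Each condition had 1 library, so no difference can be set against a spread between cultures, and no p-value was computed. SFA and SFE are code names that the sources used here do not spell out, and their doses differed, so their values are set side by side.

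In the resting cell, pro-survival proteins such as BCL-2, BCL-XL (from BCL2L1) and MCL-1 hold the effectors BAX and BAK in check. BH3-only proteins are induced or activated by stress and bind the pro-survival proteins, and some of them activate the effectors directly. Active BAX and BAK form pores that release cytochrome c, which starts the caspase cascade. Cells of epithelial tumours commonly depend on MCL-1 or BCL-XL, and both are targets of BH3-mimetic drugs.

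The DMSO library held 18767232 counts, the SFA library 13639844 and the SFE library 13644676. FPKM (fragments scaled to gene length and library total) is as deposited. Folds of single genes are ratios of counts divided by library totals, with 95% exact conditional binomial intervals that cover counting error only. Of the keratins of simple epithelia, KRT8 had 416 FPKM in the DMSO library, 223 in the SFA and 232 in the SFE library, KRT18 had 534, 292 and 294 FPKM and KRT7 had 118, 161 and 151 FPKM, so KRT8 and KRT18 were lower and KRT7 higher with both compounds. The epithelial markers CDH1, EPCAM and KRT19 lay at or under 0.336 FPKM in every library, whereas CLDN4 had 1.48 FPKM in the DMSO, 1.97 in the SFA and 1.72 in the SFE library. No leukocyte, endothelial, erythroid or hepatocyte marker reached 1 FPKM. The 6 fibroblast markers summed to 26.6 FPKM in the DMSO library, 10.3 in the SFA library and 12.7 in the SFE library, mostly from 3 genes that were lower with both compounds: COL1A1 (11.3, 5.96 and 7.16 FPKM), COL3A1 (8.47, 1.49 and 2.40) and PDGFRB (6.39, 2.63 and 2.99). Of the others, DCN and LUM lay at or under 0.378 FPKM and COL1A2 had 1, 0 and 0 counts. The part of the keratins and fibroblast markers in the results was not tested.

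The locus of BCL2L1 is shown first because its exons overlap those of another listed gene. BCL2L1 (ENSG00000171552) lies on the minus strand of chromosome 20, from 31664452 to 31723989 on hg38. RefSeq (GRCh38.p14) gives it a pair of start sites 1095 bases apart, and each window below runs from 250 bases before to 50 bases after its start. The downstream window lies entirely inside ABALON, an antisense RNA gene of the opposite strand (31721507 to 31723409), and the upstream window lies outside it. Both are printed 5′ to 3′ along BCL2L1, and capitals mark the only match to TGACNNNGC, the core of the antioxidant response element.
BCL2L1 upstream start, chr20:31723914-31724213, minus strand: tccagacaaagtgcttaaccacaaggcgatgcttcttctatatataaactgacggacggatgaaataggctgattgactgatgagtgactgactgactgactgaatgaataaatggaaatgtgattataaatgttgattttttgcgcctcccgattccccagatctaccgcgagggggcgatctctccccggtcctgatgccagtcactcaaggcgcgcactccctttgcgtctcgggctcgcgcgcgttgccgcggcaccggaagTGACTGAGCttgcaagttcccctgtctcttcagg
BCL2L1 downstream start, chr20:31722819-31723118, minus strand: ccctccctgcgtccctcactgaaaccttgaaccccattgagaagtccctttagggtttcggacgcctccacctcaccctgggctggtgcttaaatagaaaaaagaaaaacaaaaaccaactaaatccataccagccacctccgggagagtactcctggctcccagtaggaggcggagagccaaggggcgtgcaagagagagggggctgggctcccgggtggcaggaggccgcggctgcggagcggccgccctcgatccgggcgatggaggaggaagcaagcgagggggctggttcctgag
TGACNNNGC was searched on both strands. The match begins at position 267 of the upstream window, counted from its 5′ end, and so lies within the 50 bases after that start. Of 15 promoter windows found for 9 of the 10 members, 4 held this core, and they belonged to BCL2L1, BAX and BAD. The windows of BAD overlap and hold the same site, which is thus counted more than once. No window was found for MCL1, so neither core was searched there. The core occurs in 13.3% of all 35116 RefSeq windows of this length. TGATGNAA, the core bound by CHOP or ATF4 with C/EBP proteins, was in none of the 15 windows and in 3.62% of all windows. These matches are descriptions of letters, not of binding.

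Among the pro-survival genes, BCL2L1 was far higher and MCL1 lower with both compounds. BCL2L1 had 1.07 FPKM in the DMSO library (142 counts), 10.04 with SFA (967 counts) and 8.97 with SFE (864 counts). Both treated libraries therefore lay well above the control and close to each other. The difference in log2(FPKM + 1) from DMSO was 2.41 with SFA and 2.27 with SFE, and 12 and 13 of 11680 genes at 1 FPKM or more in a library, BCL2L1 included, lay at least as far above DMSO.

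ABALON, which GENCODE 29 annotates as antisense to BCL2L1, shares 1424 of its 1903 exonic bases with BCL2L1 exons, or 43.0% of the 3314 merged exonic bases of BCL2L1. The sources used here do not say whether the counting used strand, so reads from this stretch may stand under either name. ABALON had 658 counts in the DMSO library, 664 in the SFA library and 394 in the SFE library, which is 1.39-fold above DMSO with SFA (1.24 to 1.55) and 0.824 of DMSO with SFE (0.725 to 0.935). ABALON thus lay closer to its DMSO level in both treated libraries than BCL2L1 did. With DMSO, BCL2L1 held 17.7% of the counts of its locus (BCL2L1, ABALON and the antisense RNA RP11-243J16.7, at 2, 2 and 0 counts), against 59.2% with SFA and 68.7% with SFE. The summed counts were 802, 1633 and 1258, 2.80-fold above DMSO with SFA (2.57 to 3.05) and 2.16-fold with SFE (1.97 to 2.36). The direction was the same as for BCL2L1 alone, whereas the fold was smaller than the 9.37 (7.85 to 11.3) and 8.37 (7.0 to 10.1) of BCL2L1 alone. The value of BCL2L1 is uncertain for this reason.

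**Figure D1:**
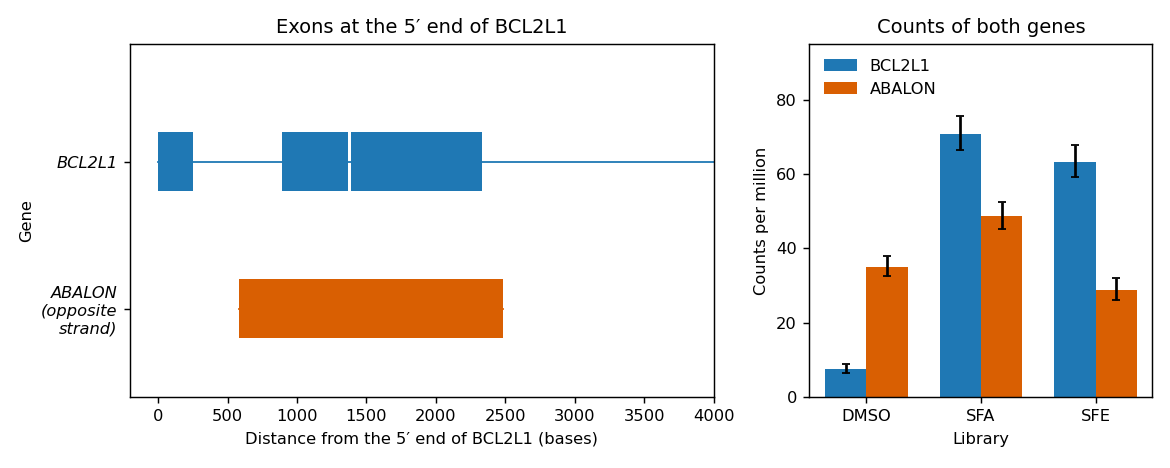
Left, merged exons of BCL2L1 and ABALON in GENCODE 29 over the first 4000 bases of BCL2L1, by distance from its 5′ end in bases; the last BCL2L1 exon lies beyond the plotted range. Right, CPM (counts scaled to the library total) of both genes in the 3 libraries (bars, from 0), with 95% Poisson intervals for counting error. ABALON exceeded BCL2L1 with DMSO, and BCL2L1 exceeded ABALON with SFA and with SFE.

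MCL1 (ENSG00000143384, chromosome 1, 150574551 to 150579738, minus strand) encodes a short-lived pro-survival protein. Its level was 15.4 FPKM in the DMSO library (2755 counts), 10.7 in the SFA library (1391 counts) and 3.88 in the SFE library (504 counts). The order was DMSO, SFA, SFE, and none of the counting intervals overlapped. MCL1 was 1.44-fold lower than DMSO with SFA (1.35 to 1.54) and 3.97-fold lower with SFE (3.61 to 4.38). On the log2(FPKM + 1) scale the differences were −0.49 and −1.75, and 772 and 22 of the 11680 genes, MCL1 included, lay at least as far below DMSO. The listed gene ADAMTSL4-AS1 overlaps MCL1 by 2 bases only and had 12, 8 and 4 counts.

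BCL2 itself (ENSG00000171791, chromosome 18, 63123346 to 63320128, minus strand), the founding member, was low throughout, with FPKM of 0.488 in the DMSO, 0.713 in the SFA and 0.649 in the SFE library (149, 158 and 144 counts). It did not reach 1 FPKM in any library and entered no count of genes past 2-fold. By counts it was 1.46-fold above DMSO with SFA (1.16 to 1.84) and 1.33-fold with SFE (1.05 to 1.68). The listed genes RP11-299P2.1 and RP11-299P2.2, which lie within it, had 0 counts in every library.

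The make-up of the transcripts of these 3 pro-survival genes therefore differed between the libraries. MCL1 gave 90.8% of the summed FPKM of the 3 pro-survival genes with DMSO, 49.9% with SFA and 28.7% with SFE. BCL2L1 gave 6.31%, 46.8% and 66.4%, and BCL2 between 2.88% and 4.81%. Their summed FPKM was 17.0, 21.5 and 13.5. MCL1 stood 14.4-fold above BCL2L1 with DMSO and 1.07-fold with SFA, where their counting intervals overlapped, and BCL2L1 stood 2.31-fold above MCL1 with SFE. These shares carry the uncertainty of BCL2L1.

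**Figure D2:**
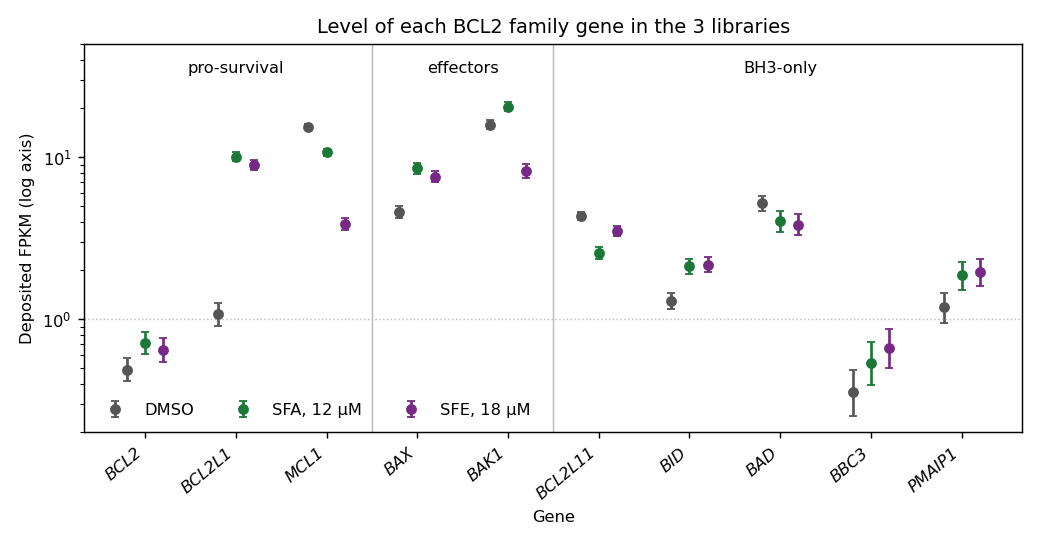
Deposited FPKM (log axis) of the 10 genes in the DMSO, SFA and SFE libraries, with 95% Poisson intervals for counting error; the dotted line marks 1 FPKM. BCL2L1 lies near 1 FPKM with DMSO and near 10 with SFA, and MCL1 stands lowest with SFE at 3.88.

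The effectors BAX and BAK1 went the same way with SFA and opposite ways with SFE. BAX (ENSG00000087088, chromosome 19, 48954815 to 48961798, plus strand) had 4.61 FPKM in the DMSO library, 8.55 in the SFA library and 7.60 in the SFE library (507, 684 and 608 counts). Both treated libraries were above the control, 1.86-fold with SFA (1.65 to 2.09) and 1.65-fold with SFE (1.46 to 1.86). BAX overlaps no other listed gene. Its differences in log2(FPKM + 1), 0.77 and 0.62, stayed under the 2-fold limit.

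BAK1 (ENSG00000030110, chromosome 6, 33572547 to 33580293, minus strand), the partner of BAX that resides on mitochondria, had 15.9 FPKM in the DMSO library, 20.5 in the SFA library and 8.22 in the SFE library (1153, 1082 and 433 counts). The SFA library was the highest and the SFE library the lowest. BAK1 was 1.29-fold above DMSO with SFA (1.19 to 1.40) and 1.94-fold lower with SFE (1.73 to 2.17). The log2(FPKM + 1) differences were 0.35 and −0.88, so BAK1 lay just inside the 2-fold limit with SFE. GGNBP1, which overlaps BAK1 on the opposite strand, had 0 counts in every library, and the copies BAK1P1 and BAK1P2 had at most 2 counts. By deposited FPKM, the counting intervals of the 2 effectors overlapped with SFE, and BAK1 gave 77.5% of their summed FPKM with DMSO. The overlap depends on the gene length used. Over merged exons with SFE, BAX had 17.2 FPKM (15.9 to 18.6) and BAK1 14.3 (13.0 to 15.8), without overlap.

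Of the 5 BH3-only genes, BID, PMAIP1 and BBC3 had listed counts above and BCL2L11 and BAD below DMSO in both treated libraries, each by less than 2-fold. BID (ENSG00000015475, chromosome 22, 17734138 to 17774770, minus strand), which is cleaved by caspase-8 and links death receptors to mitochondria, had 1.30 FPKM in the DMSO library, 2.12 in the SFA library and 2.17 in the SFE library (276, 327 and 335 counts). It was 1.63-fold above DMSO with SFA (1.38 to 1.92) and 1.67-fold with SFE (1.42 to 1.96). PMAIP1 (ENSG00000141682, chromosome 18, 59899948 to 59904306, plus strand) encodes NOXA, which binds MCL-1. It stood at 1.18, 1.86 and 1.95 FPKM (89, 102 and 107 counts), 1.58-fold (1.17 to 2.12) and 1.65-fold (1.24 to 2.22) above DMSO. The intervals of the treated libraries overlapped each other for both genes.

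BBC3 (ENSG00000105327, chromosome 19, 47220822 to 47232766, minus strand) encodes PUMA, a BH3-only protein induced by p53. It was the least abundant member with DMSO at 0.356 FPKM, against 0.541 with SFA and 0.666 with SFE, and its 39, 43 and 53 counts left wide intervals. The 1.52-fold difference with SFA (0.960 to 2.40) was not detectable at this depth. With SFE the fold was 1.87 (1.21 to 2.90). Like BCL2, it did not reach 1 FPKM.

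BCL2L11 (ENSG00000153094, chromosome 2, 111119378 to 111168447, plus strand) encodes BIM, which binds all pro-survival proteins. It had 4.32 FPKM in the DMSO library, 2.57 in the SFA library and 3.49 in the SFE library (1234, 534 and 725 counts), so the control was highest and SFA lowest. The gene was 1.68-fold lower than DMSO with SFA (1.52 to 1.86) and 1.24-fold lower with SFE (1.13 to 1.36). No listed gene overlaps it by the listed coordinates, whereas in GENCODE 29 exons of the long RNA MIR4435-2HG share 727 bases with its exons on the opposite strand. MIR4435-2HG is listed from 111196350 to 111495100, beyond the end of BCL2L11, and had 175, 349 and 301 counts. If counting followed the listed coordinates, these counts came from outside BCL2L11, and a sum is not the value of a single locus. The sum of both genes was 1.16-fold lower than DMSO with SFA (1.07 to 1.26). With SFE the fold of the sum over DMSO was 1.002 (0.923 to 1.09), and a difference in the sum was not detectable at this depth. Reads of MIR4435-2HG from the shared bases may stand under BCL2L11, so the value of BCL2L11 is uncertain.

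BAD (ENSG00000002330, chromosome 11, 64269830 to 64284704, minus strand), whose protein is held inactive by growth factor signalling, had 5.18 FPKM in the DMSO library, 4.03 in the SFA library and 3.84 in the SFE library (342, 193 and 184 counts). It was 1.29-fold lower than DMSO with SFA (1.08 to 1.54) and 1.35-fold lower with SFE (1.13 to 1.63). GPR137, a protein-coding gene of the opposite strand, shares 404 of its 4031 exonic bases (10.0%) with BAD and had 628, 468 and 474 counts. BAD has only 1708 merged exonic bases, so these 404 bases are a larger share of BAD than of GPR137. With its counts added, the fold over DMSO was 0.938 with SFA (0.848 to 1.04) and 0.933 with SFE (0.844 to 1.03). A difference in the sum was not detectable at this depth. GPR137 alone lay at 1.03 of DMSO with SFA and 1.04 with SFE, so adding it draws the sum towards no difference whatever BAD did. Reads of the shared bases may stand under either name, so the value of BAD is uncertain.

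**Figure D3:**
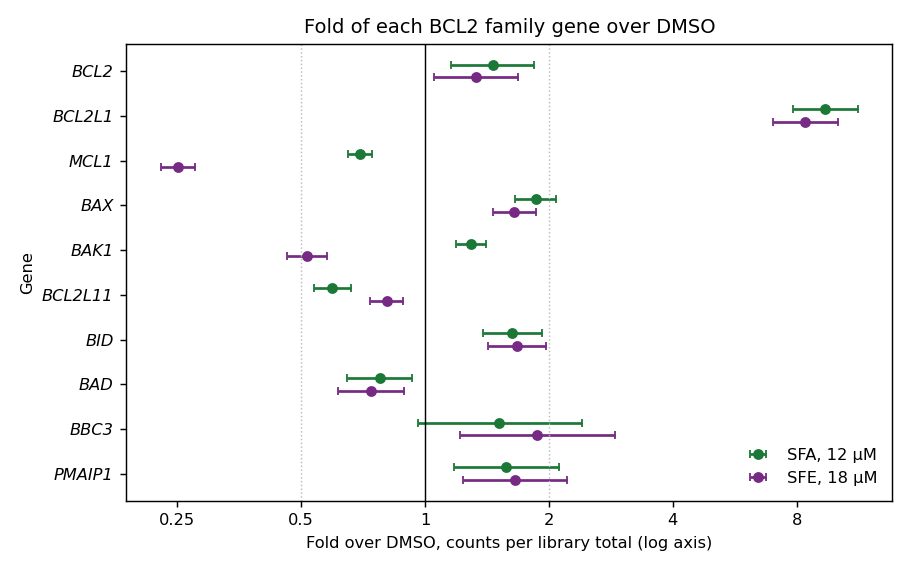
Fold of each member over DMSO with SFA and with SFE, as counts per library total on a log axis, with 95% exact conditional binomial intervals for counting error; dotted lines mark 2-fold. BCL2L1 lies at 9.37 and 8.37, MCL1 at 0.695 and 0.252, and BAK1 at 1.29 and 0.517, on opposite sides of 1.

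Of the 10 members, 8 reached 1 FPKM in a library and all 8 did so in the DMSO library. Genes past a limit of 2-fold in FPKM + 1 were counted. With SFA, BCL2L1 was the 1 member counted as higher, and 0 were counted as lower, where 1.36% and 1.34% of all 11680 genes were. With SFE, BCL2L1 was the 1 member counted as higher and MCL1 the 1 counted as lower, against 1.37% and 1.01% of all genes. The median log2(FPKM + 1) difference of the 8 members was 0.37 with SFA and 0.10 with SFE, and over all genes it was 0.01 and 0.03. Over all 10 members it was 0.28 and 0.22. The SFE median had no stable direction: it was −0.35 among the 5 members at 5 FPKM or more. Both comparisons use the same DMSO library, so a like direction in both is no independent support. As RNA was taken in bulk, fewer cells with a transcript and less of it per cell cannot be told apart.

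**Figure D4:**
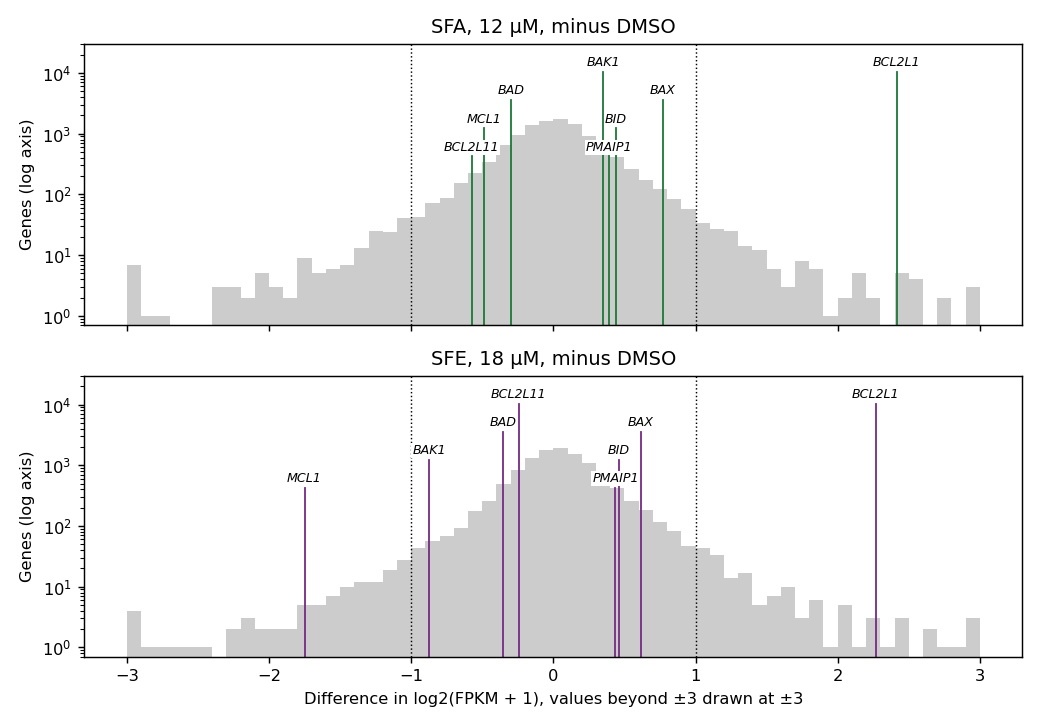
Difference in log2(FPKM + 1) from DMSO for all 11680 genes (grey bars, number of genes on a log axis) with SFA and with SFE; vertical lines mark the 8 members at 1 FPKM or more and dotted lines 2-fold. BCL2L1 lies at 2.41 and 2.27, MCL1 at −1.75 with SFE, and the other members lie between −0.88 and 0.77.

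By deposited FPKM, the members ran with DMSO from BAK1 and MCL1, whose intervals overlapped, through BAD, BAX and BCL2L11 to BID, PMAIP1 and BCL2L1, with BCL2 and BBC3 lowest, and within each of these sets the intervals of neighbours overlapped. With SFA, BAK1 led, followed by MCL1 and BCL2L1 (overlapping intervals) and then BAX. With SFE, BCL2L1, BAK1 and BAX led at 8.97, 8.22 and 7.60 FPKM, each interval overlapping that of its neighbour, and MCL1, BAD and BCL2L11 followed at 3.88, 3.84 and 3.49. PMAIP1 ranked above BCL2 and BBC3 in all 3 libraries.

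The gene length behind the deposited FPKM bears on this order. Of 13734 genes with at least 20 counts in the DMSO library, the implied length of 87.2% was within 1% of the summed lengths of all distinct exons in GENCODE 29, in which bases of overlapping exons count more than once. For MCL1 the implied length was 9519 bases, against 4371 bases of merged exons, and across the 10 members the implied length was 1.38 to 2.55 times the merged one. Deposited FPKM is therefore lower than FPKM over merged exons by a factor that differs between genes, while folds of a gene between libraries are not touched. Over merged exons, MCL1 led with DMSO at 33.6 FPKM, ahead of BAK1 at 27.8, without overlap of their intervals. BAK1 led with SFA at 35.9, followed by MCL1 at 23.3 and BCL2L1 at 21.4, whose intervals overlapped. BCL2L1 led with SFE at 19.1, with BAX next at 17.2 (overlapping intervals), BAK1 at 14.3 and MCL1 at 8.45. Unlike with deposited FPKM, the intervals of BAX and BAK1 did not overlap there.

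The genes with differences most like those of BCL2L1 and MCL1 were sought among 3451 protein-coding genes at 1 FPKM or more that overlap no listed gene, by distance in the pair of log2(FPKM + 1) differences over the 3 libraries. For BCL2L1 they were the histone variant gene H2AFJ (0.811 FPKM in the DMSO library, 8.58 in the SFA library and 7.74 in the SFE library, at a distance of 0.01), the membrane protein gene TMEM164 (0.23) and the nuclear receptor gene NR0B1 (0.60). For MCL1 they were HACD2, an enzyme of fatty acid elongation, at 39.3, 29.2 and 11.01 FPKM (distance 0.07), the transcriptional co-regulator gene CITED2 (0.39) and SUMO3 (0.44). The distances to BCL2L1 use its listed FPKM without ABALON, so they carry the uncertainty of BCL2L1.

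Of 82 other genes of the pathway in 7 lists, 64 reached 1 FPKM. On the log2(FPKM + 1) scale, 0 of these were at least 2-fold higher and 0 lower with SFA, and 0 were higher and 1, SRSF2, lower with SFE. The shares over all 11680 genes were 1.36% higher and 1.34% lower with SFA, and 1.37% higher and 1.01% lower with SFE. By counts per library total, which does not damp low genes, DDIT3 and RBM4 were 2-fold or more above DMSO with SFA and TNFSF10 below, 2 and 1 of 64, where 4.23% and 3.23% of all 11680 genes were. With SFE, BIK and DDIT3 lay above and SRSF2 and TNFSF10 below by this rule, against 4.39% and 2.52% of all genes. DDIT3, which encodes the stress factor CHOP, was 2.47-fold above DMSO with each compound (1.86 to 3.30 in both). Among 15 further BCL2 relatives, 10 reached 1 FPKM, and 6 of these were above DMSO with SFA and 8 with SFE (medians 0.13 and 0.16). Over all 11680 genes, 51.4% were above DMSO with SFA and 55.2% with SFE. BIK, a BH3-only gene, had 11, 13 and 25 counts, 3.13-fold above DMSO with SFE (1.48 to 7.04). BOK, a BAX-like effector gene, stood at 20.8, 29.5 and 31.9 FPKM, 1.42-fold (1.30 to 1.55) and 1.54-fold (1.41 to 1.67) above DMSO. BNIP3 stood at 4.17, 5.64 and 4.999 FPKM and BCL2L13 at 2.59, 3.49 and 3.12 FPKM. BCL2A1 and BCL2L10, a further pair of pro-survival relatives, had 0 counts in all 3 libraries, which with a floor of 3 counts allows up to 0.160 CPM with DMSO and 0.220 with either compound.

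Downstream of the mitochondria, 13 of 14 genes reached 1 FPKM (medians −0.02 and −0.02). DIABLO, which encodes the IAP antagonist SMAC, stood at 4.34, 7.91 and 6.19 FPKM in the DMSO, SFA and SFE libraries, CASP2 at 4.35, 5.10 and 8.67 FPKM, the initiator caspase gene CASP9 at 3.10, 2.42 and 2.11 FPKM and the protease gene HTRA2 at 6.95, 9.02 and 7.87 FPKM. Of the inhibitor of apoptosis genes, 4 of 7 reached 1 FPKM (medians −0.20 and −0.15), with BIRC6 at 6.44, 4.82 and 5.29 FPKM and XIAP at 1.01, 0.698 and 0.772 FPKM. BIRC2 stood at 1.18, 0.966 and 1.30 FPKM, and BIRC5 was the most abundant at 44.0, 41.5 and 40.8 FPKM.

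Among 9 of 13 death receptor genes and adaptors at 1 FPKM or more (medians 0.17 and 0.04), TNFSF10, the gene of the ligand TRAIL, stood at 1.75, 0.525 and 0.577 FPKM in the DMSO, SFA and SFE libraries (184, 40 and 44 counts). By counts it was 3.34-fold lower than DMSO with SFA (2.36 to 4.83) and 3.04-fold lower with SFE (2.18 to 4.33), a difference that the log2(FPKM + 1) scale gave as −0.85 and −0.80. Its receptor gene TNFRSF10A stood at 10.5, 14.6 and 13.4 FPKM, the adaptor gene TRADD at 1.73, 1.78 and 2.56 FPKM, and CASP8, whose product cleaves BID, at 0.951, 1.38 and 1.40 FPKM. TNFSF10, TNFRSF10A, TRADD, BOK, BNIP3, DIABLO, CASP2, CASP9, HTRA2, BIRC6 and XIAP overlap other listed genes, and their values are uncertain.

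**Figure D5:**
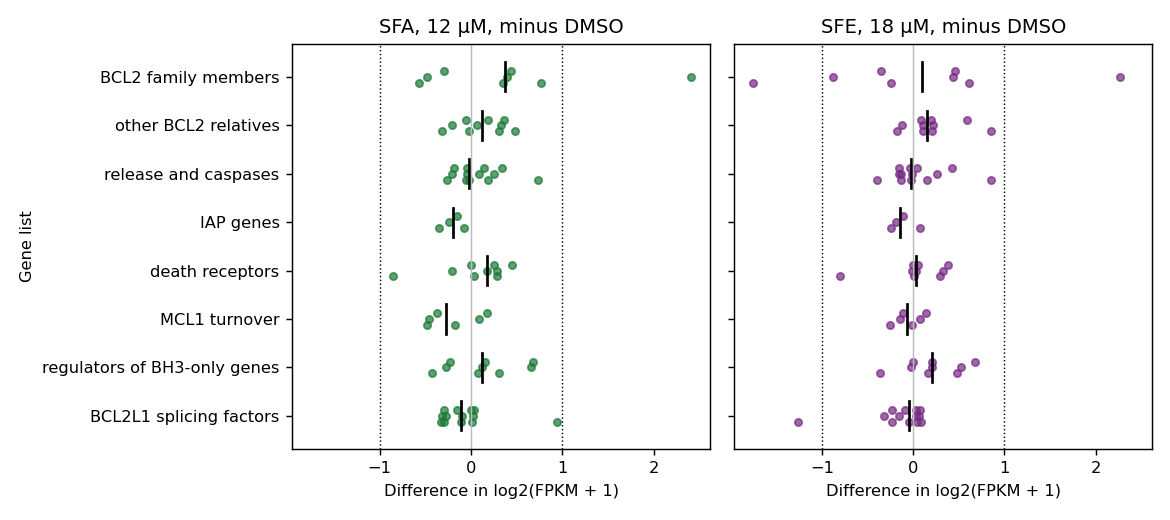
Difference in log2(FPKM + 1) from DMSO for the members and for 7 lists of other genes of the pathway, each point 1 gene at 1 FPKM or more in a library, black bars the medians and dotted lines 2-fold. Outside the BCL2 family members, 1 gene passed 2-fold on this scale, SRSF2 at −1.26 with SFE.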

How the data were processed

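RNA was sequenced from AGS cells, 1 library per condition. Ribosomal RNA was depleted, per the labels' protocols. HISAT2 2.0.4, StringTie 1.2.3 and hg38 are named, per the submitters' processing notes, without roles. The counting tool, its strand setting and the annotation release are not given in the sources used here. Raw counts per gene, as whole numbers, were deposited by the authors. The FPKM values deposited by the authors equal the count over 1 length per gene and the library total.

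Of identifiers that shared a name, that of the highest mean FPKM stood for it (373 others dropped). A gene entered when any library showed 1 FPKM or more. Differences are in log2(FPKM + 1), which understates low genes, and genes past 2-fold were counted. Intervals at 95% for folds were exact conditional binomial (Clopper-Pearson) and for levels Poisson; reads carry no molecular identifiers, so they cover counting error only. The fold and its interval were tested on simulated Poisson counts with known folds. These counts held no spread between cultures and no reads shared by overlapping genes, so the test covers counting error only. Overlaps, exons and strands came from GENCODE 29, whose coordinates of all 10 members equal the listed ones, and promoters from RefSeq (GRCh38.p14; members matched, 9). Python 3.11.15, pandas 2.3.3, NumPy 2.4.6, SciPy 1.17.1 and matplotlib 3.10.9 were used.

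The members and lists were chosen with earlier results of these data known. Genes were named by a rule: all members, the listed genes that overlap them, from each list those past 2-fold and otherwise up to 4 with the largest difference, and the 3 genes most like BCL2L1 and MCL1. CDH1, EPCAM, CLDN4, KRT7, KRT8, KRT18, KRT19, COL1A1, COL1A2, COL3A1, PDGFRB, DCN, LUM, BCL2A1, BCL2L10, BCL2L2 and MIR4435-2HG were named after their values were seen. Alternatives covered the pseudocount, the filter, median-ratio scaling, overlapping genes, the scale, shared names and, added after seeing the data, gene length over merged exons and counts of BCL2L11 summed with MIR4435-2HG.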

Additional observations from a re-analysis of the deposited data

How the results depend on the processing

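No paired analysis was possible because each group had 1 library, and no replicate could be left out. With the members that overlap another listed gene left out, 4 members were left and 0 were at least 2-fold higher with SFA, 0 higher with SFE and 0 lower with SFE, where the reported counts were 1, 1 and 1; this follows from leaving out BCL2L1 and MCL1, although MCL1 overlaps its neighbour by 2 bases. In the other 9 alternatives these counts and the 0 lower with SFA were as reported. The median difference of the members with SFE was 0.10. It was −0.35 at a filter of 5 FPKM, 0.45 without overlapping members and 0.43 with FPKM per merged exon length. The members entering differed in each of these. Taken as log2 ratios of counts without pseudocount, the SFE median was 0.21. On that scale it was 0.31 with counts summed with overlapping genes, and 0.36 with those of MIR4435-2HG added as well. BCL2L11, at −0.24 with SFE, lay at −0.31 as a log2 ratio of counts and at 0.002 with MIR4435-2HG added. The median with SFA stayed between 0.28 and 0.51 in all alternatives, and the log2 ratio of counts gave 0.51 with or without summing. Among single members, 127 values moved by less than their counting interval and 25 by more, none of those at 2-fold changing sign. The filters, leaving members out and summing shared names could not move a single member's value. Many of the 127 were therefore fixed in advance. As a log2 ratio of counts, BCL2L1 lay at 3.23 with SFA and 3.07 with SFE, and with its locus summed at 1.49 and 1.11. Median-ratio scaling lowered differences by up to 0.03 with SFA and 0.08 with SFE. Depth limits BBC3, whose interval with SFA holds 1.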

Other observations

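Genes known to act on the members were measured in the same libraries. Of 8 genes of MCL-1 protein turnover and stability, 6 reached 1 FPKM, with median log2(FPKM + 1) differences of −0.27 with SFA and −0.06 with SFE. The deubiquitinase gene USP9X stood at 9.73, 6.67 and 7.99 FPKM in the DMSO, SFA and SFE libraries, the ubiquitin ligase gene HUWE1 at 63.2, 48.8 and 58.4 FPKM, and the stress-response gene IER3 at 164, 119 and 162 FPKM. The ubiquitin ligase gene BTRC stood at 1.30, 1.59 and 1.53 FPKM. Of 11 transcription factors and co-regulators known to act on BH3-only genes, 9 reached 1 FPKM (medians 0.12 and 0.21). DDIT3, which encodes CHOP, stood at 0.692, 1.71 and 1.71 FPKM, the pseudokinase gene TRIB3 at 38.6, 61.5 and 55.9 FPKM, FOXO1 at 1.05, 1.23 and 1.86 FPKM and SP1 at 11.6, 8.36 and 8.77 FPKM.

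BCL2L1 makes a long pro-survival and a short pro-death form by alternative splicing, which gene-level counts do not separate. Of 14 splicing and RNA-binding factors known to act on BCL2L1 or like genes, 13 reached 1 FPKM (medians −0.11 and −0.05). SRSF2 had 9.07 FPKM in the DMSO library, 7.02 in the SFA library and 3.20 in the SFE library (1951, 1098 and 500 counts), 2.84-fold lower with SFE by counts (2.57 to 3.14). RBM4 stood at 7.31, 14.9 and 7.49 FPKM, 2.04-fold above DMSO with SFA by counts (1.90 to 2.19), HNRNPF at 51.0, 40.8 and 40.7 FPKM and SF3B1 at 12.1, 9.65 and 10.2 FPKM. USP9X, IER3, DDIT3, FOXO1, SP1, SRSF2 and RBM4 overlap other listed genes, and their values are uncertain.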
